A study of Gallus gallus with 22 samples.

Results

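The genes described here were abundant in the pancreas of broilers and far lower in the jejunum. Of the 17007 genes in the deposited tables, 66 had a mean normalised log2 CPM (CPM, counts scaled to a common library total) of 6 or more over the 11 pancreas libraries and a pancreas mean at least 6 log2 units above the jejunum mean over 11 jejunum libraries. The genes were thus chosen by these values, so their pancreatic level and the gap between the tissues are given below as a description, with no test. The files name genes only by Ensembl ID (the form ENSGALG00010011790), none of the 66 IDs could be paired with a symbol, and no function is assigned to any of them.

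The exocrine pancreas is made mostly of acinar cells, which synthesise digestive enzymes and their inactive precursors and store them in zymogen granules. The granules are released into the pancreatic duct and reach the small intestine, where the enzymes act on protein, fat, starch and nucleic acids. Because acinar cells devote most of their protein synthesis to a short list of secreted products, pancreatic mRNA is known for being dominated by few transcripts. The jejunum, in which much of this digestion takes place, is lined mainly by absorptive enterocytes and mucus-secreting goblet cells, which do not normally make the pancreatic enzymes.

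Male Ross 308 broilers received, from hatch to d 24, a diet of coarsely ground corn without sugarcane bagasse (SB, a fibrous by-product of sugar production; control) or with 2% SB. At d 24 a single broiler per pen gave a piece of proximal jejunum and a piece of pancreas, and mRNA was sequenced from each. The tables hold 6 control and 5 SB libraries of pancreas and 5 control and 6 SB libraries of jejunum, after the study had removed libraries that it regarded as outliers. Replicate numbers run within each tissue, so libraries of the same name in both tissues need not come from the same broiler. By the numbers in the sample columns, jejunum control 1 and pancreas control 6 share number 9. Jejunum SB 4 and pancreas SB 3 share number 26, jejunum SB 5 and pancreas SB 4 number 34, and jejunum SB 6 and pancreas SB 5 number 41. Control 2 to 5 and SB 1 and 2 each have the same number in both tissues. No symbols could be matched, so the tissue labels could not be checked against marker genes.

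Total counts ranged from 65957320 to 166039437 (median 74145355) in control pancreas and from 80467800 to 300479804 (median 186019684) in SB pancreas. In the jejunum they ranged from 42540952 to 203039911 over both diets. The SB pancreas libraries were thus mostly the more deeply counted ones. Between 62.7% and 69.4% of the counts from 1 to 59 in a library were even numbers. The totals are also far above the mean read numbers that the study lists for each tissue and diet. A count need thus not be an independent molecule. Intervals below treat counts as independent and cover counting error only. They are too narrow where several counts come from 1 molecule.

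At the threshold on level, the members just inside were ENSGALG00010024727 at 6.08, ENSGALG00010016436 at 6.11 and ENSGALG00010005015 at 6.21 log2 CPM, and the genes just outside were ENSGALG00010008880 at 5.995, ENSGALG00010017917 at 5.98 and ENSGALG00010026950 at 5.97. At the threshold on the tissue difference, ENSGALG00010005015 at 6.06, ENSGALG00010010732 at 6.24 and ENSGALG00010022520 at 6.26 log2 units were just inside, and ENSGALG00010010711 at 5.83, ENSGALG00010021958 at 5.77 and ENSGALG00010018076 at 5.64 were just outside. Both edges were crowded, and 102 genes met thresholds of 5 while 50 met thresholds of 7.

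The 66 members held most of the pancreatic counts. Their share of all counts was 72.7% ± 4.54 (SD, n = 11), with a lowest library at 65.9% and a highest at 77.7%. In control pancreas the lowest, median and highest shares were 65.9%, 72.5% and 77.7% (mean 71.8% ± 5.07, SD, n = 6). The SB replicates 1 to 5 had shares of 66.7%, 76.5%, 73.6%, 75.6% and 76.4% (mean 73.8% ± 4.12, SD, n = 5). The diets overlapped over nearly the whole range, and the libraries fell into a lower set (control 2, control 4 and SB 1, between 65.9% and 66.7%) and the other 8, at 70.5% or more. A share is part of a closed total, so a lower share of the members is by construction a higher share of all other genes, and in bulk tissue fewer acinar cells and less RNA per cell cannot be told apart.

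**Figure D1:**
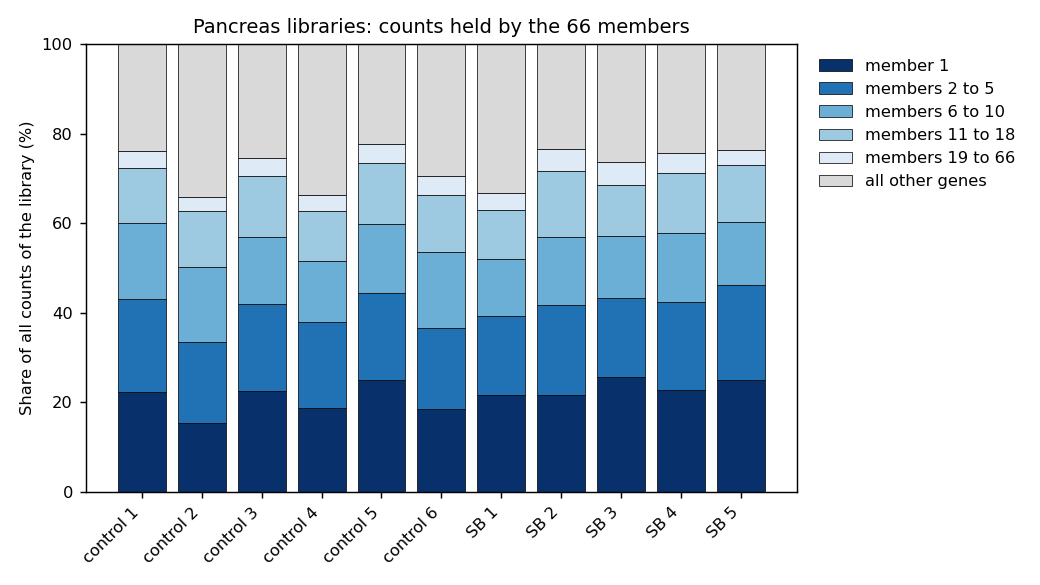
Share of all counts (%, vertical axis) in each of the 11 pancreas libraries (horizontal axis, control replicates 1 to 6 and SB replicates 1 to 5), stacked by members in order of mean count, with all other genes in grey. The coloured part, the 66 members, reaches from 65.9% to 77.7%, and the darkest block, the most counted member, from 15.3% to 25.6%.

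A few genes carried nearly all of this share. The most counted member alone held 21.8% of pancreatic counts, the first 3 members 33.6%, the first 5 members 40.9%, the first 10 members 56.0% and the first 18 members 68.7%, as means over 11 libraries. The other 48 members together added 4.06% on average (3.13% to 5.07% over libraries). By mean CPM of library totals, 18 members were at 10000 or more, 8 between 1000 and 10000, 25 between 100 and 1000, and 15 under 100. Members filled the 26 highest places among all genes ranked by mean count, the first gene that is not a member stood at place 27, and the 10 most counted genes of every pancreas library were all members. This order is one of counts and not of level per transcript length, since gene lengths were not used.

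The jejunum offers a scale for this concentration. In the pancreas 7 to 10 genes were enough to hold 50% of the counts of a library, whereas in the jejunum 991 to 1268 genes were needed. The most counted gene of a jejunum library held 0.704% to 1.93% of its counts, its 10 most counted genes held 3.77% to 7.12%, and its 66 most counted genes 11.4% to 16.2%. Both ranges came from all genes of each library and did not use the member rule.

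The gene ENSGALG00010011790 was the most counted gene in all 11 pancreas libraries. Its share in control pancreas was 15.3% at the lowest, 20.5% at the median and 25.1% at the highest (mean 20.4% ± 3.54, SD, n = 6). In SB replicates 1 to 5 it was 21.7%, 21.7%, 25.6%, 22.8% and 25.0% (mean 23.4% ± 1.83, SD, n = 5). Every SB library lay inside the control range except SB 3 at 25.6%, and the 3 lowest values, 15.3%, 18.6% and 18.7%, were all from control broilers. On the deposited scale its mean was 18.53 log2 CPM in the pancreas, 19.45 log2 units above its jejunum mean. It made up 29.8% of the counts of the members on average (23.2% to 34.8%).

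The second place was held by ENSGALG00010008076, at 7.11% of counts (4.72% to 8.65%), which ranked between 2 and 4 among the members in every library. It was followed by ENSGALG00010022713 at 4.76% (3.64% to 5.90%), which ranked between 2 and 5. The next members were close to each other. ENSGALG00010006574 had 3.76% of counts, ENSGALG00010023541 3.53%, ENSGALG00010017144 3.41% and ENSGALG00010017555 3.38%, and these means differed by less than the SD of any of the 4 over libraries, which was 0.491 percentage points or more. ENSGALG00010017806 at 2.95%, ENSGALG00010023813 at 2.91% and ENSGALG00010006134 at 2.42% completed the first 10. The steadiest share among the 15 most counted members was that of ENSGALG00010006552, at 1.58% ± 0.151 (SD, n = 11). ENSGALG00010021397 ran from 0.828% to 2.60% and ENSGALG00010006566 from 0.932% to 3.73%, the latter falling anywhere from place 6 to place 18 among the members.

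**Figure D2:**
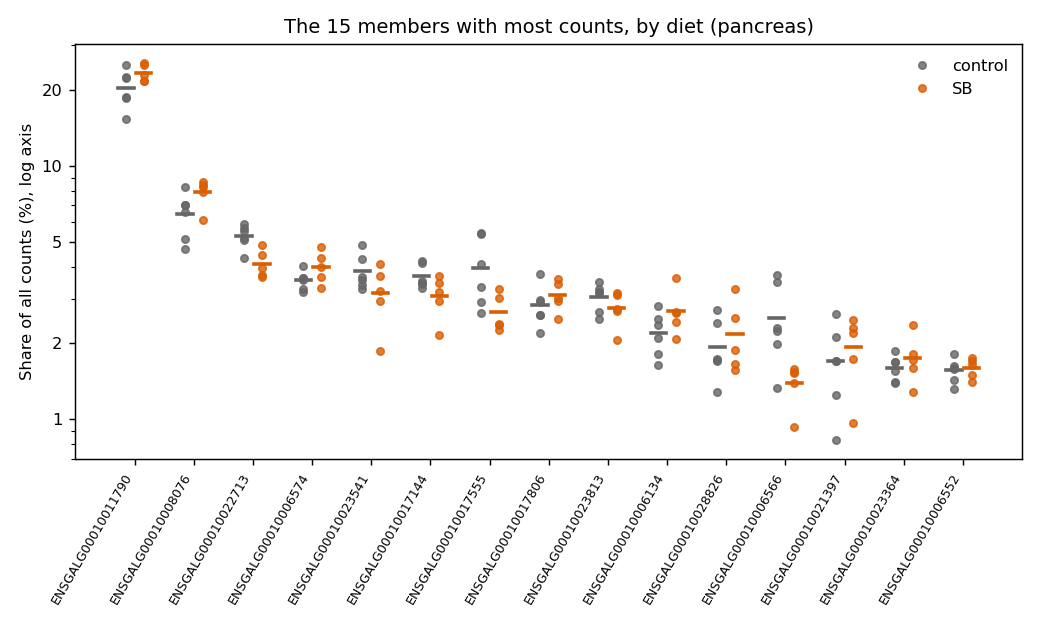
Share of all pancreatic counts (%, log axis) for the 15 members with the highest mean CPM (horizontal axis), each point a library, control in grey (n = 6) and SB in orange (n = 5), with a bar at the mean of each diet. The first gene stands apart at 15.3% to 25.6% of counts, and the points of the diets overlap for every gene shown.

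Whether the members moved together between broilers depended on the scale. On log2 CPM with the trimmed mean of M-values (TMM) scaling used by the study, which sets libraries equal over most genes, the median Pearson r over the 2145 pairs of members was 0.515 across the 11 pancreas libraries. Of these pairs, 89.5% had r above 0 and 52.0% had r above 0.5, while over pairs of all 14116 genes tested in the pancreas the median was -0.00014 and 14.9% had r above 0.5. On CPM of library totals with no TMM factor the order turned around, with a median r of 0.042 over the members (11.6% of pairs above 0.5) and 0.501 over all genes (50.2% above 0.5). The members held 65.9% to 77.7% of each library total, so on library totals they could rise together only within narrow limits. The other genes share what is left, which raises their r on that scale. The low r of members on library totals is thus partly fixed by the closed total and does not show that they varied independently. The median near 0 over all genes is in turn partly fixed by TMM scaling, which holds most genes level. The higher r of members on that scale does not by itself show that they were coordinated. The same libraries enter every pair, so these are descriptions and carry no p.

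The scaling factor was higher where the members' share was lower. The 3 libraries with the lowest shares, control 2, control 4 and SB 1, had the 3 highest TMM factors, at 1.29, 1.26 and 1.30. Control 5, with the highest share, had the lowest factor, 0.803. A measure that no library scaling changes is the SD, over libraries, of the log2 ratio of a pair of genes. Its median was 0.50 over pairs of members and 0.56 over pairs of all genes, and 12.7% of member pairs against 22.4% of all pairs were under 0.3. On this measure the members were near genes at large at the median and had a smaller share of close pairs. Genes at large include many of low level, and genes of a level like that of the members were not compared on this measure.

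The value on the TMM scale was as large within diets. With each diet's mean subtracted the median r was 0.553, within control libraries alone it was 0.583 (n = 6) and within SB libraries alone 0.596 (n = 5). Most members followed the rest: 53 of 66 had r above 0.5 with the mean of the other members on the TMM scale, with a median of 0.731. On library totals 10 of 66 did so, with a median of 0.194. The share of all genes with r above 0.5 with this mean was not computed, so these counts only describe the members. Only 2 members were below 0 on the TMM scale, ENSGALG00010024574 at -0.72 and ENSGALG00010005015 at -0.21, and ENSGALG00010024574, singled out here after its values were seen, stayed below 0 on library totals, at -0.41. In control pancreas ENSGALG00010024574 had 102, 166 and 398 normalised CPM as lowest, median and highest, and in SB replicates 1 to 5 it had 281, 168, 247, 202 and 114. Its highest values were in control 2 and SB 1, where the members' share was among the lowest.

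**Figure D3:**
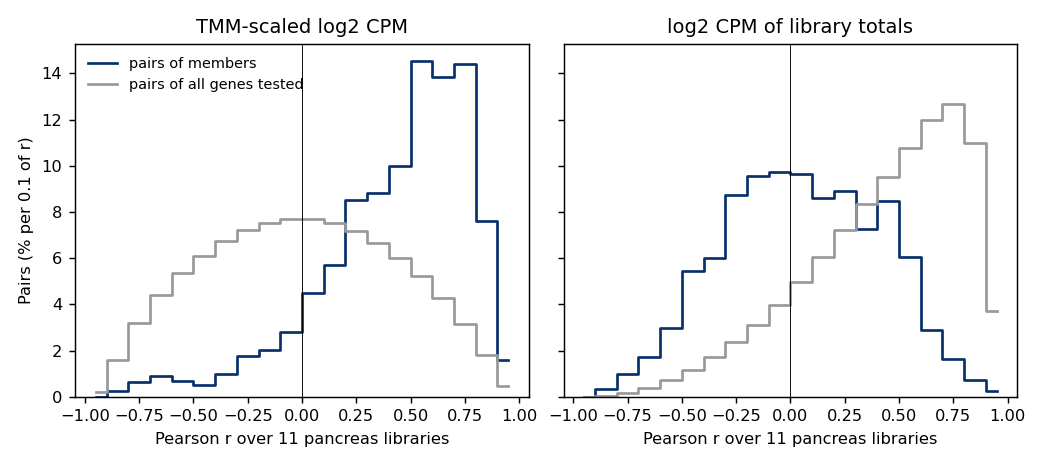
Distribution of Pearson r over the 11 pancreas libraries (horizontal axis; vertical axis, % of pairs per 0.1 of r) for the 2145 pairs of members (blue) and all pairs of the 14116 genes tested (grey). With TMM scaling (left) the members centre on 0.515 and all genes on 0, and with library totals only (right) the members centre on 0.042 and all genes on 0.501.

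Some pairs were tied on both scales. ENSGALG00010008076 and ENSGALG00010008060, a member outside the first 15 that was singled out after its values were seen, had the steadiest ratio of all 2145 pairs, with an SD of 0.092 log2 units, an r of 0.986 on the TMM scale and 0.960 on library totals. ENSGALG00010023495 and ENSGALG00010023501 had an r of 0.994 and 0.991, and an SD of the log2 ratio of 0.175. How reads that fit several near-identical genes were counted is not given in the sources used here, so the counts of closely similar gene copies are uncertain.

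How far the members were spread between broilers of a diet depended on the scale. On the TMM scale the SD of log2 CPM after subtracting diet means had a median of 0.447 over the members (0.230 to 3.63), 0.289 over all 14116 genes tested, and 0.251 over the 849 of those genes with a mean log2 CPM of 6 or more. In 25 of 66 members the SD was above 0.5, and in 6 it was above 1. On library totals, a comparison added after seeing the data, the medians were 0.293 over the members, 0.362 over all genes and 0.209 over the 849 genes. The members' median was thus below that of all genes on this scale, but above that of the 849 genes on both scales. On library totals 14 members were above 0.5 and 5 above 1. The shares of all genes above these limits were not computed, so these counts only describe the members. On the TMM scale the highest library exceeded the lowest by a median of 2.75 times over all members, and among the 15 most counted by between 1.85 and 5.07 times, against 1.89 times and between 1.38 and 4.00 times on library totals. The smallest SD on the TMM scale, 0.230, belonged to ENSGALG00010015121, with 296, 373 and 430 normalised CPM as lowest, median and highest in control pancreas and 263 to 414 in SB pancreas. It was followed by ENSGALG00010001358, with an SD of 0.279.

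A few members were close to 0 in single broilers. ENSGALG00010023756 had 458, 872 and 1493 normalised CPM as lowest, median and highest in the 6 control broilers. In SB replicates 1 to 5 it had 0.854, 1557, 1305, 1354 and 2.89. The SB 1 and SB 5 broilers were thus at least 158.6 times below each of the other 9, whose median was 374 times the higher of these low values. ENSGALG00010023893 followed the same broilers, with 90.5, 156 and 219 normalised CPM as lowest, median and highest in control pancreas and 0.847, 206, 156, 160 and 1.27 in SB replicates 1 to 5.

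The members ENSGALG00010023495 and ENSGALG00010023501 were low in the same broilers, to a lesser degree. ENSGALG00010023495 had 254 to 497 normalised CPM in the control broilers and 49.5, 324, 293, 275 and 82.5 in SB replicates 1 to 5. ENSGALG00010023501 had 100.4 to 201 in control and 25.5, 115, 112, 99.1 and 40.3 in SB replicates 1 to 5. With ENSGALG00010006566, 5 of the 66 members were lower in both SB 1 and SB 5 than in all other 9 libraries and 0 were higher, and the same held for 1.42% of all genes tested (200 of 14116). These broilers were picked out because ENSGALG00010023756 was low in them, so this count is a description. SB 1 also had one of the lowest shares of members (66.7%), whereas SB 5 was among the highest (76.4%).

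Other members split the broilers differently. ENSGALG00010005015 had 2.81 normalised CPM in control 1 and 5.04 in SB 2, against 20.7 to 227 in the other 9 libraries. ENSGALG00010023371 stood at one of a pair of levels, 506 to 926 normalised CPM in 6 broilers (4 control, 2 SB) and 4451 to 9405 in the other 5 (2 control, 3 SB), with no broiler between. ENSGALG00010026939 was spread from 118 to 1788 normalised CPM in control and had 661, 1467, 1558, 295 and 1493 in SB replicates 1 to 5. None of these 3 patterns separated the diets.

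**Figure D4:**
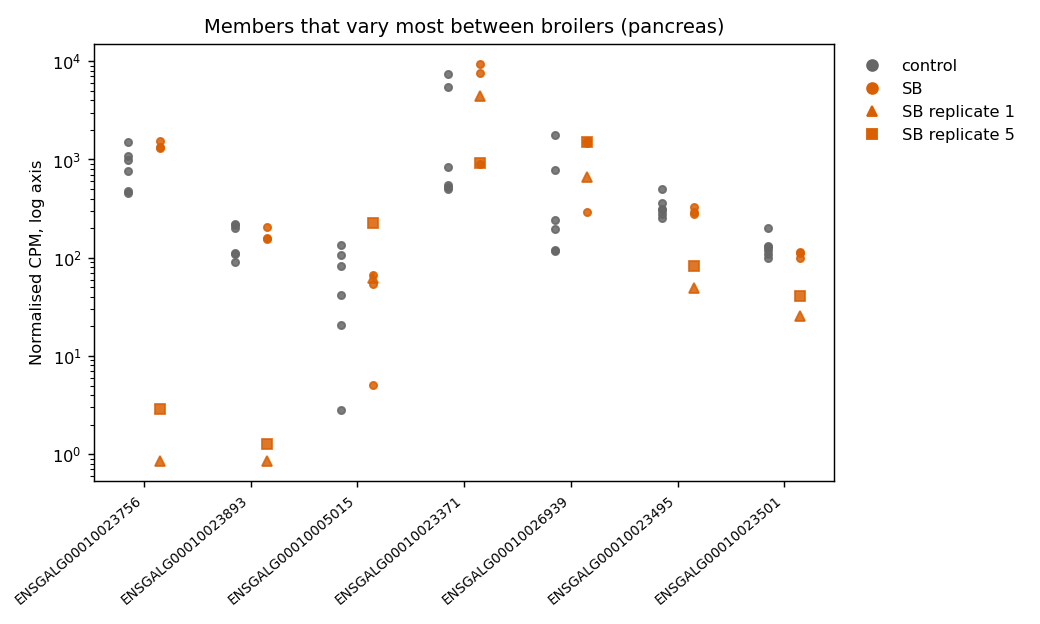
Normalised CPM (log axis) of 7 members in the pancreas (horizontal axis, gene IDs), each point a library, control in grey (n = 6) and SB in orange (n = 5), with SB replicate 1 as triangles and SB replicate 5 as squares. For ENSGALG00010023756 and ENSGALG00010023893 these broilers lie between 0.847 and 2.89 while all others lie at 90.5 or above, and ENSGALG00010023371 falls into a lower and a higher band that both diets share.

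Whether the SB diet changed these genes was tested across all 14116 genes that passed a filter on low counts in the pancreas, among them all 66 members, with the quasi-likelihood test of edgeR. No member was a differentially expressed gene (DEG) by the study's thresholds (a log2 fold change of 1 or more in either direction, with an unadjusted P under 0.05), against 1.10% of all genes. An unadjusted P under 0.05 was reached by 2 of 66 members (3.03%), against 3.85% of all genes. Of these, 1 was higher in SB (background 2.00%) and 1 was higher in control (background 1.84%), and after Benjamini-Hochberg adjustment no member and none of the 14116 genes passed 0.05 (background 0%; DESeq2 called 15 of all genes and 0 members). In no member were the values of one diet all above those of the other (background 0.276%). With this fit the share of members called was no larger than that of genes at large, which changed with other fits, on library totals and without some libraries. The log2 fold change was above 0 (higher in SB) in 40 of 66 members (60.6%; background 46.4%), with a median of 0.10 over the members and -0.01 over all genes. With single libraries left out this count ran from 36 (without control 2 or SB 2) to 51 (without SB 1), and the median from 0.01 (without control 2) to 0.25 (without SB 1). On library totals 34 members were above 0, with a median of 0.02 over the members and -0.11 over all genes.

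Of the members with an unadjusted P under 0.05, ENSGALG00010014619 was lower in SB. Its normalised CPM was 329, 790 and 891 as lowest, median and highest in control pancreas and 472, 433, 405, 614 and 373 in SB replicates 1 to 5. All SB values were below 5 of the 6 control values, and control 4 was below them all. The log2 fold change was -0.65 ± 0.228 (SE; edgeR P = 0.0147, adjusted p = 0.995; two-sided exact permutation p = 0.0519). ENSGALG00010010984 was higher in SB, with 55.8, 92.5 and 194 normalised CPM as lowest, median and highest in control and 151, 262, 108, 160 and 157 in SB replicates 1 to 5. The diets overlapped through control 5, at 194, and SB 3, at 108, and the log2 fold change was 0.68 ± 0.298 (SE; edgeR P = 0.0426, adjusted p = 0.995; two-sided exact permutation p = 0.0563).

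For the most counted members the edgeR fit used here (glmQLFit with legacy = FALSE) gave wide errors. Each edgeR SE was derived from the test, as the absolute log2 fold change divided by the square root of the F statistic. It is thus not the same statistic as an SE from the spread or from DESeq2. For ENSGALG00010011790 the normalised CPM was 118122, 205211 and 311983 as lowest, median and highest in control and 167031, 252569, 259416, 262202 and 286109 in SB replicates 1 to 5. Its log2 fold change of 0.25 had an SE of 1.52 in the edgeR fit (P = 0.874), while the spread of its log2 values over broilers gives 0.270, DESeq2 gave 0.244, and the two-sided exact permutation test gave p = 0.297. In 12 members, all among the 15 most counted, the edgeR SE was over 1.5 times that from the spread. When log2 CPM was compared only by exact permutation (two-sided), an alternative chosen after seeing the data, 2 of 66 members were under 0.05 against 3.80% of all genes, with a smallest possible p of 0.00216. One was ENSGALG00010006566, with 16523, 20816 and 39442 normalised CPM in control pancreas (lowest, median, highest) and 11764, 17858, 14082, 18156 and 10674 in SB replicates 1 to 5 (log2 fold change -0.73 ± 0.407, SE; edgeR P = 0.0978; exact permutation p = 0.0195). Its SB values overlapped the lower control values. The other was ENSGALG00010023501 (log2 fold change -0.75 ± 0.363, SE; edgeR P = 0.0631; exact permutation p = 0.0216). Both are among the 5 members low in SB 1 and SB 5. Without these libraries (a setting also added later) the exact permutation p was 0.131 for ENSGALG00010006566 and 0.321 for ENSGALG00010023501, where the smallest possible is 0.0119. This setting leaves out the lowest values of both genes, all from SB broilers, so a weaker difference was built in. It cannot show whether the difference rests on diet or on these broilers.

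The number of members with P under 0.05 changed with the fit, with the scaling and with single libraries. With legacy = TRUE in edgeR it was 3 (4.55%) against 3.46% of all genes. On library totals with no TMM factor it was 10 of 66 (15.2%), of which 3 were higher in SB, against 3.12% of all genes, and in DESeq2 it was 4 (6.06%) against 4.56%. It was 6 (9.09%) without control 5, 5 of them higher in SB and 1 a DEG, against 5.14% of all genes with P under 0.05 and 1.48% DEGs. It was 4 (6.06%) without SB 3, against 4.39%, and 3 (4.55%) without SB 1, against 4.96%. It was 1 (1.52%) without control 1, control 2, control 3, control 6, SB 4 or SB 5, against 2.98% to 4.93%, and 0 without SB 1 and SB 5 together, against 3.47%. The members' share was thus above that of all genes in some of these settings and below it in others. ENSGALG00010014619 kept an unadjusted P under 0.05 without any single library, with log2 fold changes from -0.80 to -0.58, whereas ENSGALG00010010984 kept it only without control 5 or SB 3.

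In the jejunum the members left a trace. Their counts summed to 3590 to 29331 per library, which is 104.7 ± 17.6 CPM (SD, n = 11; 83.5 to 144.5) or 0.00835% to 0.0144% of counts. The sums in control replicates 1 to 5 were 88.0, 108.1, 101.4, 123.4 and 83.5 CPM (mean 100.9 ± 16.0, SD), and SB libraries had 92.3, 102.8 and 144.5 CPM as lowest, median and highest (mean 107.8 ± 19.7, SD, n = 6). The diets overlapped. Counts were found in every jejunum library for 45 members, in some for 19, and in none for ENSGALG00010023495 and ENSGALG00010023501.

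This trace was not a scaled-down copy of the pancreatic pattern. ENSGALG00010011790 made up 29.9% of the members' mean CPM in the pancreas and 1.03% in the jejunum, and the 18 most counted members made up 94.4% and 18.6%. Conversely, the 5 members highest in the jejunum held 44.0% of the jejunal sum and 3.54% of the pancreatic sum. Over the 64 members with a count, the jejunal mean ran from 4.46 to 75116 ppm of the pancreatic mean (ppm, the jejunal as a part of the pancreatic CPM). These means are of CPM of library totals, whereas the member rule averages log2 CPM with TMM factors over all 22 libraries. On the rule's scale the member at 75116 ppm, ENSGALG00010007934, was 6.90 log2 units lower in the jejunum. ENSGALG00010011790, at 4.94 ppm, was 19.45 log2 units lower. The ppm classes below were not recomputed on the rule's scale. Of the 26 members most counted in the pancreas, 13 were at 10 to 100 ppm, 3 at 100 to 1000 ppm and 10 under 10 ppm. A member of low pancreatic level could be above 0 and under 10 ppm only with very few jejunal counts, if at all. Counting depth thus partly sets which members can fall there. The 10 members under 10 ppm were all among the 26 most counted. They lay between 4.46 and 9.03 ppm with a median of 6.06, an upper end set by the limit of 10 ppm (the next member was at 11.6 ppm), and had pancreatic levels from 2701 to 217616 CPM. Without jejunum control 1 the same 10 lay between 1.71 and 8.22 ppm with a median of 4.53. The lowest of these was ENSGALG00010026906, which had 8 counts over all jejunum libraries and was at 4.54 ppm with control 1. The 19 members at 10000 ppm or more had pancreatic means of 46.5 to 492.8 CPM, none of them among the first 26, and the rule on the tissue difference sets how high a jejunal level a member of given pancreatic level may have.

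**Figure D5:**
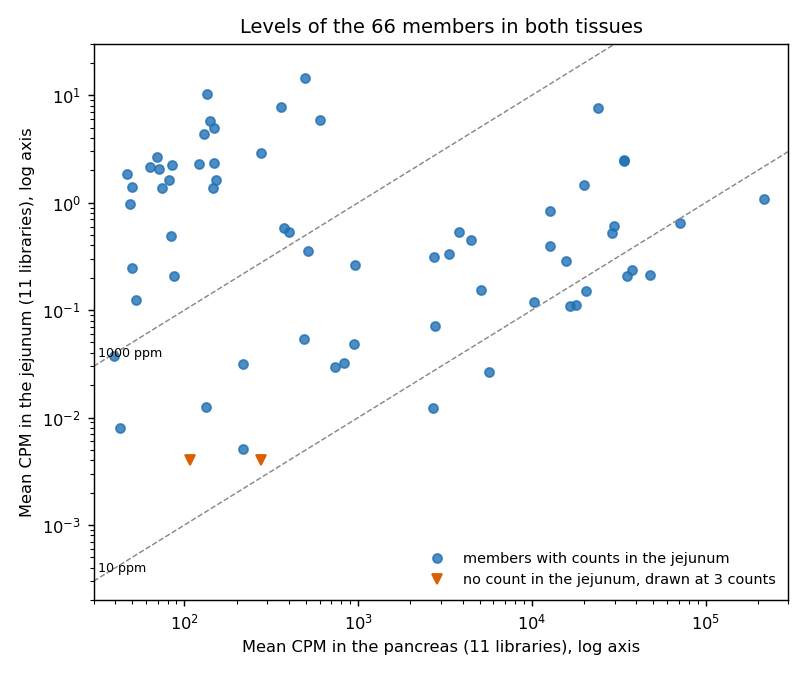
Mean CPM of library totals in the jejunum (vertical, log axis, n = 11) against that in the pancreas (horizontal, log axis, n = 11) for the 66 members. Dashed lines mark where the jejunal CPM is 10 and 1000 ppm of the pancreatic CPM. Triangles mark the 2 members without a jejunal count, drawn at 3 counts over all jejunum libraries. Of the 26 members most counted in the pancreas, 10 lie below the lower line, 13 at 10 to 100 ppm and 3 at 100 to 1000 ppm. A further 19 members of low pancreatic level lie well above the upper line, at 10000 ppm or more.

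ENSGALG00010023495 and ENSGALG00010023501 had no count in any of the 11 jejunum libraries. If counts are independent, a count of 0 allows up to about 3 counts over all jejunum libraries (0.00407 CPM). With that limit, on CPM of library totals, they were at least 67434-fold and 26388-fold lower in the jejunum than in the pancreas. Where 1 molecule gives several counts, these bounds are too high. ENSGALG00010011790 had 15 to 201 counts per jejunum library. Control replicates 1 to 5 had 3.48, 0.839, 0.623, 0.750 and 1.14 CPM and the SB libraries 0.324, 0.828 and 1.46 CPM as lowest, median and highest. Control 1 stood above all other libraries, and its Wilson 95% interval, 2.97 to 4.06 CPM from 157 counts, did not reach the next highest value. The 5 most counted members summed to 7.08 CPM in jejunum control 1 and to 0.712 to 3.34 CPM in the other 10 libraries, or 17.3 against 1.74 to 8.16 ppm of their pancreatic level. The sum over all 66 members in control 1, at 88.0 CPM, was among the lower ones, and without this library the mean sum was 106.3 CPM.

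The members highest in the jejunum differed in how steady they were. ENSGALG00010019670 was the highest, at 14.5 ± 0.991 CPM (SD, n = 11), with 13.4 to 14.7 in control and 13.2 to 16.6 in SB libraries. ENSGALG00010015121 ran from 4.69 to 11.9 CPM. Others were uneven between broilers. ENSGALG00010007934 had a mean of 10.2 CPM, with 0.443, 12.1, 15.6, 5.46 and 0.907 in control replicates 1 to 5 and 0.690, 1.72 and 54.0 as lowest, median and highest in SB libraries. The next highest SB library was SB 2, at 18.6 CPM. ENSGALG00010006134 was at 25.7 CPM in control 4 and at 27.3 CPM in SB 1, and between 1.34 and 8.53 CPM in the other 9 libraries. ENSGALG00010014619 ran from 1.35 to 12.1 CPM, with a median of 6.66. These members varied by up to 122 times between jejunum libraries while in the pancreas ENSGALG00010007934 was among the 3 steadiest members, with an SD of 0.292 log2 units within diets.

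The diet comparison in the jejunum covered 44 of the 66 members, those that passed the filter on low counts there, among 14488 genes. No member was a DEG (background 0.338%), none passed after adjustment (none of 14488 genes did, in edgeR or in DESeq2), and none separated the diets (background 0.110%). An unadjusted P under 0.05 was reached by 1 of 44 members (2.27%; background 1.97%), which was higher in SB (background 1.07%), and by 0 members higher in control (background 0.904%). The log2 fold change was above 0 in 21 of 44 members (47.7%; background 51.3%), and the median log2 fold change was -0.02 over these members and 0.00 over all genes. The member was ENSGALG00010005015, with 1.04, 1.42, 1.65, 1.88 and 1.40 CPM in control replicates 1 to 5 and 1.49, 2.73 and 3.65 CPM as lowest, median and highest in SB libraries. The diets overlapped, and the log2 fold change was 0.73 ± 0.264 (SE; edgeR P = 0.0177, adjusted p = 1.00; two-sided exact permutation p = 0.0368). The exact permutation test called 1 of 44 members against 2.06% of all genes. The count of members with P under 0.05 was 2 without control 3 (4.35% of members tested, against 2.11% of all genes), without control 4 (4.35% against 3.54%), without control 5 (4.44% against 1.96%) and without SB 1 (4.65% against 2.86%). A single member was a DEG without control 3 (0.391% of all genes) and without control 4 (0.488% of all genes).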

How the data were processed

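The authors trimmed reads with Trimmomatic 0.39, aligned them to the chicken genome build GRCg7b with STAR 2.7.9 and counted reads per gene with HTSeq 2.0.3, after FastQC 0.12.0. The libraries were made with a stranded mRNA kit, and the strand setting and the treatment of reads that fit several genes are not given in the sources used here. The deposited count table holds raw counts per gene with no normalization. The deposited log2 table holds log2 CPM with TMM factors over all 22 libraries, and all 374154 values were recomputed from the counts within 1e-06 (edgeR 4.0.16, prior count 2).

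Members were found in the log2 table. The members and gene lists were chosen with earlier results of these data known. Groups came from the sample labels, every sample column was assigned, and 618 genes had no count. Shares used all counts of a library, and normalised CPM used TMM factors within a tissue. The log2 scale adds the prior count, so differences of low genes are understated.

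Diets were compared within each tissue by edgeR (glmQLFit with legacy = FALSE, R 4.3.3) after filterByExpr (minimum count 10, minimum total 15). Benjamini-Hochberg adjustment was over all genes tested, and differences are SB minus control. The SE printed beside an edgeR P is the absolute log2 fold change divided by the square root of the F statistic. Single members were also compared by an exact permutation test over 462 regroupings. Each broiler stands for a pen, so p-values measure the spread between broilers. On simulated counts, 199 of 200 changed genes were called in the pancreas design (14093 genes) and 196 of 200 in the jejunum design (14444 genes). In the pancreas the largest log2 fold change fitted for a member was 1.02 (ENSGALG00010026939), and the edgeR SE reached 1.52 (ENSGALG00010011790). Whether differences of the size and error fitted for the members would be called was not tested in either tissue. No replicate libraries were duplicates (the smallest chi-square per gene was 128.5 in the pancreas and 50.2 in the jejunum). Alternatives were other scalings, filters and fits, DESeq2 1.42.0, other member thresholds, a replicate block and each library left out.

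Named genes were the 15 members with most counts, the 5 with the smallest P for diet in the pancreas and any DEG, the 5 most and 3 least variable in the pancreas, the 5 highest and 3 lowest in the jejunum, and the 3 genes on either side of each threshold. The 13 marker lists (223 symbols) could not be applied, since 0 of 17007 IDs matched the RefSeq table.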

Additional observations from a re-analysis of the deposited data

Results flagged for a closer look

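A library that stood apart from the rest of its diet group by a gap test (Dixon, 95% level) was found in 9 of the 70 groups tested. Some groups were of genes named for a large spread or a high jejunal level, and some groups shared counts. No rate is therefore given to compare this number with. No cause was tested.

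In the pancreas, SB 1 was low for ENSGALG00010011790, at 167031 normalised CPM against 252569 to 286109 in the other SB libraries, and for ENSGALG00010008076, at 47075 against 85250 to 99009. On library totals the share of ENSGALG00010011790 in SB 1, 21.7%, was level with SB 2. Control 4 was low for ENSGALG00010014619, at 329 against 719 to 891 normalised CPM, and SB 5 was high for ENSGALG00010005015, at 227 against 5.04 to 66.7.

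In the jejunum, control 1 was high for the sum of the 5 most counted members, at 7.08 CPM against 1.37 to 2.01, and for ENSGALG00010011790, at 3.48 CPM against 0.623 to 1.14. ENSGALG00010006134 was high in control 4, at 25.7 CPM against 1.51 to 8.28, and in SB 1, at 27.3 CPM against 1.34 to 8.53. ENSGALG00010007934 was high in SB 5, at 54.0 CPM against 0.690 to 18.6, in the most deeply counted jejunum library.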

How the results depend on the processing

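Of 334 recomputed values, 283 kept their direction, their side of the threshold or their size within the replicate spread, 31 moved, 15 lost significance and 5 turned sign; the causes were not tested. In the pancreas, members with P under 0.05 (2) numbered 10 on library totals (15.2%, against 3.12% of all genes), 4 by the DESeq2 Wald test (6.06%, against 4.56%), 1 with member thresholds at 7 (2.00%, against 3.85%), 0 without SB replicates 1 and 5 together (against 3.47%) and 1 to 6 with single libraries left out (1.52% to 9.09%, against 2.98% to 5.14%). With legacy = TRUE in edgeR, 3 members had P under 0.05 (4.55%, against 3.46%). DEGs (0) numbered 1 with member thresholds at 5 (against 1.10% of all genes) and 0 to 1 with single libraries left out. The log2 fold change of ENSGALG00010023756 (-0.05) ran from -0.39 to 0.27 with single libraries left out. It turned positive without control 2 (0.02), control 5 (0.17), SB 1 (0.27) or SB 5 (0.27). Without SB replicates 1 and 5 together it was 0.68, a rise built in because these hold its lowest values. In the jejunum, members with P under 0.05 (1) numbered 2 with member thresholds at 5 (2.63%, against 1.97%), 0 at 7 (against 1.97%) and 1 to 2 with single libraries left out, and DEGs (0) numbered 0 to 1. The members' share of pancreatic counts (72.7%) was 51.0% without the most counted member and 72.2% to 73.4% with single libraries left out. The median r of members (0.515) was 0.042 on library totals, 0.420 with thresholds at 5 and 0.465 to 0.546 with single libraries left out. The jejunal sum (104.7 CPM) was 59.5 with TMM factors over all 22 libraries, 369.7 with thresholds at 5, 53.4 with thresholds at 7 and 100.7 to 106.8 with single libraries left out. With the replicate number as a block, 0 members had P under 0.05 in the pancreas (against 2.30% of all genes). In the jejunum 1 did (2.27%, against 1.32%). The log2 fold changes in the pancreas were then -0.59 for ENSGALG00010014619 and 0.67 for ENSGALG00010010984. That of ENSGALG00010023756 was then -1.51 (SE 2.46), outside its range with single libraries left out. Libraries with the same number did not deviate together (correlations from -0.52 to 0.24 in the pancreas and -0.40 to 0.17 in the jejunum), so the numbers were not taken as pairs. Counting depth limits the jejunal values, since members with few counts there have wide intervals.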
